A study of Mus musculus with 15 samples.

Results

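Complexes III, IV and V form the later part of the mitochondrial respiratory chain. The genes described here encode, for the most part, subunits of these complexes that are made from nuclear DNA. They were taken by name from GENCODE M21: protein-coding mouse genes whose symbols begin with Uqcr (complex III) or Atp5 (complex V), Cyc1, and genes whose symbols begin with Cox followed by 4 to 8 (complex IV). Of 45 such genes, 42 were listed in every library among 12391 named genes: 9 of complex III, 16 of complex IV and 17 of complex V. The genes without values here were Cox7b2, Cox8c and a second gene that carries the symbol Atp5o. The hearts came from male C57BL/6 mice in 3 groups of 5: Control, AngII (given angiotensin II, a vasoconstrictor peptide) and AngII+QDG (given the same peptide together with QDG, which is named only by this abbreviation). The sources used here do not give doses, treatment times or ages. RNA of whole heart tissue was depleted of ribosomal RNA and sequenced, and the study asked which genes and pathways differed between the groups.

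Complex III passes electrons from ubiquinol to cytochrome c, complex IV passes them on to oxygen, and complex V uses the proton gradient built along the way to make ATP. Each complex joins a few catalytic subunits, some of them encoded in mitochondrial DNA, to many small nuclear subunits that stabilise or regulate it. In the heart, whose contraction depends on oxidative ATP supply, several complex IV subunits exist as a heart and skeletal muscle form (Cox6a2, Cox7a1, Cox8b) beside a form made in most tissues (Cox6a1, Cox7a2, Cox8a). Nuclear respiratory genes are known targets of the transcription factors GABPA (an ETS factor), NRF1, YY1 and the estrogen-related receptors (ERR).

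RefSeq promoter windows on GRCm38.p6, each running from 250 bases before to 50 bases after a transcription start, were found for 32 of the 45 genes (35 windows). Both strands were searched for CCGGAAG (ETS), the NRF1 consensus, ATGGCG (YY1) and AAGGTCA (an ERR site). The ETS letters occurred in 28.6% of the members' windows and in 8.86% of all 32851 windows in the table, the NRF1 letters in 22.9% and 4.60%, the YY1 letters in 25.7% and 8.93%, and the ERR letters in 11.4% and 4.72%. A match is a run of letters and not a measured binding site. Windows of 5 genes are printed 5′ to 3′ on the gene's strand, with matches on either strand in capitals. Cox6a1 and Cox8a are general forms of complex IV subunits, Cox8b and Cox7a1 are heart forms, and Cox5b is the subunit whose lower level in AngII hearts held in the most settings.
Cox6a1 (chr5:115348909-115349208, minus strand): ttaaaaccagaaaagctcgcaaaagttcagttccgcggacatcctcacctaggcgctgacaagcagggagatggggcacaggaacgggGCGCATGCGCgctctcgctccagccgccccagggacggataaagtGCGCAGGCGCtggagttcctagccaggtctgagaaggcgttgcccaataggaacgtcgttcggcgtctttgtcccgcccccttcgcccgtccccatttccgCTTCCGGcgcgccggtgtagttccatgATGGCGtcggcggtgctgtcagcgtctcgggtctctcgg
Cox8a (chr19:7217567-7217866, minus strand): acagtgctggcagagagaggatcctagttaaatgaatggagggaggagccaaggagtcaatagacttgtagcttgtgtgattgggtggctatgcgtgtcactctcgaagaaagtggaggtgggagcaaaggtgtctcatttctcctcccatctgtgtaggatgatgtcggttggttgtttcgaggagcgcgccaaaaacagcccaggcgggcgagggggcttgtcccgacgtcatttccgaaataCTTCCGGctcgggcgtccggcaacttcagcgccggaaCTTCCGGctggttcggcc
Cox8b (chr7:140900397-140900696, minus strand): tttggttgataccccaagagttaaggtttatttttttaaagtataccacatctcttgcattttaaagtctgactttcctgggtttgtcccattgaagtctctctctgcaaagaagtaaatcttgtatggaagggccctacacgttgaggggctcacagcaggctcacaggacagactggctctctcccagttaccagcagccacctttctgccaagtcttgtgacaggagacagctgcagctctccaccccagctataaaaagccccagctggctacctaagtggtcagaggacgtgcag
Cox7a1 (chr7:30183921-30184220, plus strand): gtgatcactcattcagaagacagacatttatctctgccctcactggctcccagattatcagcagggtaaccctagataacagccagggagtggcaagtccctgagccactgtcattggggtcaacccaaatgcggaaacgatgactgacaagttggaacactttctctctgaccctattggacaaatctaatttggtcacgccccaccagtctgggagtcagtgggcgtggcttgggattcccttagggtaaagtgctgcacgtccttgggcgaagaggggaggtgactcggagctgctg
Cox5b (chr1:36691237-36691536, plus strand): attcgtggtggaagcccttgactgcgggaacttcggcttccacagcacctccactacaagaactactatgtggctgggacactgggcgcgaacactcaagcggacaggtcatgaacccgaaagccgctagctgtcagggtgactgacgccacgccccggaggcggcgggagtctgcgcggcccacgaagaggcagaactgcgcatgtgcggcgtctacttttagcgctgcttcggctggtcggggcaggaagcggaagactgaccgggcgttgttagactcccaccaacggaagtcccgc
The Cox6a1 window held 1 ETS match, 2 NRF1 matches and 1 YY1 match, none overlapping, and the Cox8a window held 2 ETS matches. None of the 4 motifs was found in the windows of the heart forms Cox8b and Cox7a1, nor in those of Cox5b and of the general form Cox7a2. Other members without a match included Uqcr10, Atp5d, Atp5g1 and Atp5f1, and no window was found for the heart form Cox6a2. A contrast between heart and general forms was not tested.

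Libraries were comparable in depth and differed in how they weighted short and long transcripts. Low FPKM values (fragments per kilobase of transcript, scaled to library size) rose in whole steps, and with 1 step read as 1 fragment each FPKM unit stood for 51.6 to 78.3 fragments per kilobase across libraries, a measure of their depth. The short-against-long balance, the mean log2(FPKM + 1) of 2210 protein-coding transcripts under 1000 nt minus that of 6253 of at least 3000 nt, members left out, ran from 0.85 to 1.27 in Control, from 0.64 to 0.83 with AngII and from 0.52 to 0.76 with AngII+QDG. Every Control library thus leaned more to short transcripts than any treated library, and Control 3 (1.27) and Control 5 (1.22) leaned most. Transcripts listed at 0 made up 6.93% to 20.6% of each Control library (Control 5 highest), 4.96% to 7.10% with AngII and 4.86% to 6.71% with AngII+QDG, and the part of this in the results was not tested. Cardiomyocyte markers, of which 9 of 10 were listed, none at 0, summed to 29280 to 37330 FPKM in Control, 30440 to 34170 with AngII and 22970 to 39470 with AngII+QDG. None of 6 skeletal muscle markers was listed. Erythroid markers (5 of 5 listed) summed to 3795 to 12220 FPKM in Control, 2198 to 9324 with AngII and 2698 to 9472 with AngII+QDG, and fibroblast markers (6 of 6 listed) to 190 to 247, 218 to 327 and 214 to 327. Endothelial markers (6 of 6) summed to 593 to 895, 716 to 1008 and 641 to 944 FPKM, and macrophage markers (6 of 6) to 112 to 188, 96.3 to 186 and 105 to 142. No marker of these lists was at 0 in every library, and their part in the results was not tested.

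Between AngII and Control hearts, 9 of the 42 genes were lower in AngII, 0 were higher and 33 did not pass the test. Of all 12267 genes tested, 1.48% were called lower, 11.9% higher and 13.4% in either direction. No member had all libraries of a treated group above Control, as 10.1% of all genes had for AngII and 12.8% for AngII+QDG. The test was limma on log2(FPKM + 1) over all 15 libraries with Benjamini-Hochberg adjustment over all genes and a threshold of 0.05. Complex IV held 6 of the 9 (Cox5b, Cox6b2, Cox7a1, Cox6b1, Cox4i1 and Cox6a2), complex III held Uqcr10 and Uqcr11, and complex V held Atp5e. The median log2 fold change was −0.37 over the 16 genes of complex IV, −0.18 over the 9 of complex III and −0.18 over the 17 of complex V, against 0.20 over all genes. For 5 members (Cox4i1, Cox5b, Cox6b2, Cox7a1 and Atp5g2) every AngII library lay below every Control library, as for 1.00% of all genes. In whole tissue, fewer cells of a type and less RNA per cell cannot be told apart.

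AngII+QDG hearts against Control gave 16 lower members, 0 higher and 26 not called, where 3.31% of all genes were lower, 16.0% higher and 19.4% called in either direction. Complex IV held 9 of the 16, complex V 4 and complex III 3, and the medians were −0.45, −0.23 and −0.27 in that order, against 0.18 over all genes. For 10 members all AngII+QDG libraries lay below all Control libraries, as for 1.73% of all genes. Both comparisons share the Control libraries, so their values are given side by side and are not independent. Called in both were 8 genes, Cox6b2 was called with AngII alone, and Atp5d, Atp5g1, Atp5g2, Cox4i2, Cox6a1, Cox8a, Cox8b and Uqcrc1 were called with AngII+QDG alone. Between AngII+QDG and AngII limma called 0 members, as it called 0% of all genes. At an unadjusted p under 0.05 stood 1 member, Cox6a1, and 578 of all genes.

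**Figure D1:**
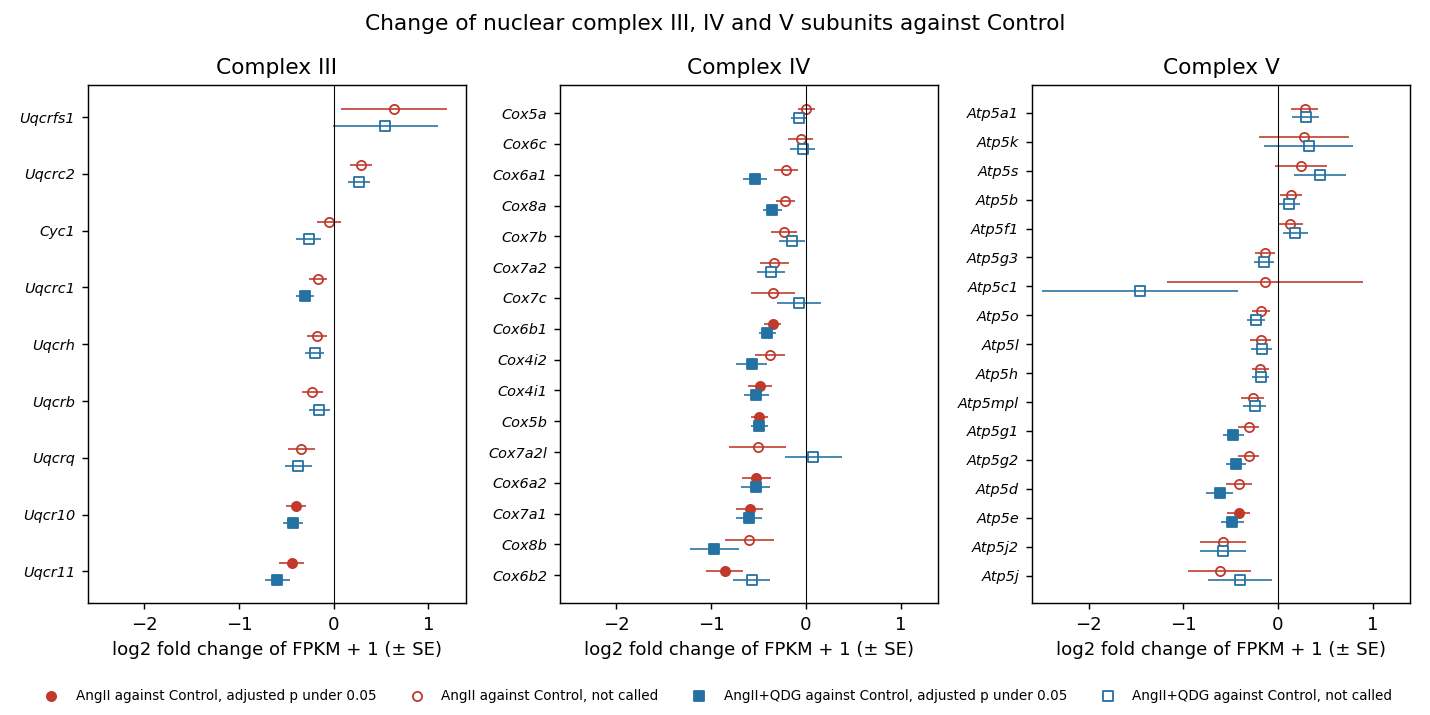
Log2 fold change of FPKM + 1 with its standard error for each of the 42 members, one panel per complex, for AngII (circles) and AngII+QDG (squares) against the 5 Control libraries; filled marks passed the adjusted p threshold of 0.05. Most small subunits sit left of 0 in both comparisons, while Uqcrc2, Atp5a1, Atp5b and Atp5f1 sit to the right without a call.

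Other settings of the analysis changed the number of calls in both directions, and they bear on every gene below. With each library's short-against-long balance as a covariate limma called 0 members against Control in either comparison and 0 of all 12267 genes, and the members' medians were 0.056 for AngII and 0.0086 for AngII+QDG. Below 0 were 34 of 42 members in each Control comparison without the covariate, and 15 (AngII) and 19 (AngII+QDG) with it. Between AngII+QDG and AngII this covariate gave 0 members and 0.00815% of all genes lower. Without Control 3 and Control 5, 1 member (Cox5b) was lower in AngII, where 0.0327% of all genes were, and 5 (Atp5d, Uqcr11, Cyc1, Cox6b1 and Cox5b) in AngII+QDG, where 1.90% were. Quantile normalization gave 3 lower members for AngII (3.37% of all genes) and 9 lower and 1 higher for AngII+QDG (8.14%), and a fit of only the groups compared gave 1 (0.160%) and 11 (1.48%). Scaling to equal medians gave more, 13 lower members for AngII (5.83%) and 24 for AngII+QDG (13.2%), with members' medians of −0.51 and −0.59. Genes of the mitochondrial genome held 21.3% to 32.5% of each library's FPKM. With them taken out of each total, AngII gave 7 lower members (0.888% of all genes) and 1 higher (21.0%). AngII+QDG gave 13 lower (1.52%) and 2 higher (24.2%). The members' medians were then −0.10 and −0.17, against 0.30 and 0.29 over all genes. With voom on the recovered fragments the counts of lower members were 10 (1.26%) and 16 (2.89%). Over all genes AngII gave 1457 higher and 181 lower calls, against 406 and 413 after quantile normalization and 361 and 715 after median scaling. For AngII+QDG these were 1968 and 406, 983 and 999, and 791 and 1625. The balance separates Control from both treated groups, so it and the treatment cannot be told apart.

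In complex III, Uqcr10 and Uqcr11, both small subunits, were lower in both treated groups, and the core subunit Uqcrc1 was lower in AngII+QDG. Uqcr11, a small membrane subunit at the edge of the complex, stood at 1123, 1455, 1848, 1179.8 and 1606 FPKM in Control 1 to 5, at 1051, 969, 1095, 917 and 1206 in AngII and at 805, 1054, 967, 1004 and 880.4 in AngII+QDG. AngII+QDG libraries all lay below the Control libraries, whereas AngII 5 exceeded Control 1 and Control 4. The log2 fold change was −0.44 ± 0.13 (SE) for AngII (limma adjusted p = 0.0424) and −0.60 ± 0.13 for AngII+QDG (adjusted p = 0.00885). The AngII call of Uqcr11 held in 4 of 15 fits that each left out 1 library and in 6 of 13 other settings. Its AngII+QDG call held in 15 and 12. Uqcr10, which sits beside cytochrome c1 and the Rieske protein, had 891, 1104, 1248, 1025 and 1303 FPKM in Control libraries 1 to 5, 853, 779, 929, 760.5 and 879 in the AngII libraries and 714, 876, 847, 843 and 830.3 in the AngII+QDG libraries. Only AngII 3 reached into the Control range, and all AngII+QDG libraries lay below it. Its log2 fold changes were −0.40 ± 0.11 (limma adjusted p = 0.0291) and −0.43 ± 0.11 (adjusted p = 0.0131). The AngII call of Uqcr10 held in 8 of the 15 left-out fits and in 8 of 13 other settings, and the AngII+QDG call in 15 and 10. Uqcrc1, a core subunit on the matrix side, had 767, 1021, 977, 999 and 857 FPKM in Control libraries 1 to 5, 862, 764, 854, 785 and 834 in the AngII libraries and 703, 859.7, 809, 685 and 679.5 in the AngII+QDG libraries. It overlapped between all groups and was called for AngII+QDG alone, at −0.31 ± 0.10 (limma adjusted p = 0.039; −0.17 for AngII, adjusted p = 0.25). This call held in 7 of the 15 left-out fits and in 7 of 13 other settings.

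The redox subunits of complex III did not pass. Cyc1, cytochrome c1, had 679, 717, 702, 653 and 421 FPKM in Control libraries 1 to 5, 608, 563, 689, 567 and 589.9 in the AngII libraries and 522, 513, 589.9, 497 and 476 in the AngII+QDG libraries. Control 5 lay far below the other Control libraries. The log2 fold changes of Cyc1 were −0.051 ± 0.13 for AngII (limma adjusted p = 0.815) and −0.27 ± 0.13 for AngII+QDG (adjusted p = 0.163), and without Control 3 and Control 5 the second was called. Uqcrfs1, the Rieske iron-sulphur protein, had 129, 139, 599.8, 652 and 264 FPKM in Control libraries 1 to 5, 644, 647, 126, 506 and 636 in the AngII libraries and 174, 443, 456, 551 and 638 in the AngII+QDG libraries. Each group held both low and high libraries, and the groups overlapped throughout (0.64 ± 0.56, adjusted p = 0.45 for AngII). Uqcrc2, the second core subunit, was at 363 ± 68.9 FPKM in Control, 438 ± 11.4 with AngII and 430 ± 26.9 with AngII+QDG (SD, n = 5), a log2 difference of 0.29 ± 0.12 for AngII that was not called (limma adjusted p = 0.0994). With the genes of the mitochondrial genome taken out of each library's total, Uqcrc2 was called higher in AngII (0.44, adjusted p = 0.0261), and without Control 4 it was called higher in both treated groups. The small subunits Uqcrb (−0.23), Uqcrh (−0.18) and Uqcrq (−0.34) did not pass for AngII.

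In complex IV, 6 of 16 subunits around the catalytic core were lower in AngII hearts. Cox5b, the zinc-binding subunit on the matrix side, had 918, 863, 1079.7, 799.8 and 1045 FPKM in Control libraries 1 to 5, 679, 636, 703, 604 and 701 in the AngII libraries and 697, 706, 660.4, 629 and 636 in the AngII+QDG libraries. Both treated groups lay wholly below the Control libraries and close to each other. Cox5b was called in all 15 fits that each left out 1 library (limma adjusted p from 0.0038 to 0.0336) and in 12 of 13 other settings, and with the balance covariate it was at −0.25 ± 0.11 (SE; adjusted p = 0.917). In Control 1 the gene's FPKM was divided between the transcripts ENSMUST00000193210 (48.3% of the gene) and ENSMUST00000081180 (50.6%), whereas in Control 2 the latter held 0.640%. The sum over transcripts in Control 1 lay within the range of the other Control libraries.

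Cox4i1, a membrane subunit through which ATP is known to inhibit the enzyme, had 1832, 2043, 2367, 2881 and 2097 FPKM in Control libraries 1 to 5, 1284, 1642, 1750.0, 1504 and 1799 in the AngII libraries and 1299, 1777, 1664, 1601 and 1429 in the AngII+QDG libraries. Each treated library was below each Control library (−0.48 ± 0.13 for AngII, limma adjusted p = 0.0306, and −0.52 ± 0.13 for AngII+QDG, adjusted p = 0.0144). With the balance covariate Cox4i1 was at −0.42 ± 0.21 for AngII without a call (limma adjusted p = 0.917). The AngII call also ended without Control 3, AngII 1, AngII 2 or AngII 4, with an adjusted p of at most 0.0669. Its sister form Cox4i2, known for its use in lung and under low oxygen, was scarce at 16.1, 22.7, 16.6, 15.2 and 21.6 FPKM in Control libraries 1 to 5, 13.6, 12.6, 15.5, 10.7 and 17.2 in the AngII libraries and 11.1, 10.1, 13.8, 15.5 and 10.02 in the AngII+QDG libraries. The groups overlapped, and AngII+QDG was called (−0.57 ± 0.16, limma adjusted p = 0.0237) while AngII was not (−0.38 ± 0.16, adjusted p = 0.121).

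Cox6b1, which faces the intermembrane space and joins the monomers of the complex, had 1069, 1312, 1568, 1237 and 1398 FPKM in Control libraries 1 to 5, 1054, 985, 1081, 945 and 1061 in the AngII libraries and 898, 1022, 1025, 1013 and 976 in the AngII+QDG libraries. Control 1 was the one Control library within the AngII range, and AngII+QDG lay wholly below Control. The differences were −0.35 ± 0.09 (limma adjusted p = 0.0301) and −0.41 ± 0.09 (adjusted p = 0.0102). The AngII call of Cox6b1 held in 8 of 15 left-out fits and in 9 of 13 other settings, and the AngII+QDG call in 15 and 11. Cox6b2, the testis form, was scarce, with 4.82, 2.75, 3.51, 2.36 and 4.09 FPKM in Control libraries 1 to 5, 1.30, 1.84, 1.85, 2.13 and 0.478 in the AngII libraries and 1.98, 1.85, 1.90, 2.25 and 1.88 in the AngII+QDG libraries. Both treated groups lay below all Control libraries, and the fit gave −0.86 ± 0.20 for AngII (limma adjusted p = 0.0202) and −0.57 ± 0.20 for AngII+QDG (adjusted p = 0.0542). The AngII call of Cox6b2 held in all 15 left-out fits and in 7 of 13 other settings. Among the settings that lost it was the sum over only transcripts listed in every library. Of the 4 transcripts of Cox6b2, 3 were not listed in every library.

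The heart forms Cox6a2, Cox7a1 and Cox8b had the highest mean FPKM, a level per length, of all complex IV members in Control and in AngII, and each was called lower in at least 1 comparison. Cox6a2 had 2879.6, 3586, 4286, 3165 and 5727 FPKM in Control libraries 1 to 5, 2818, 2683, 2929, 2423 and 2444 in the AngII libraries and 2166, 2919, 2851, 2762 and 2569 in the AngII+QDG libraries. Control 5 stood highest and Control 1 fell within the treated range (−0.52 ± 0.16 for AngII, limma adjusted p = 0.0408, and −0.53 ± 0.16 for AngII+QDG, adjusted p = 0.0282). The AngII call of Cox6a2 held in 5 of 15 left-out fits and in 5 of 13 other settings, and the AngII+QDG call in 12 and 8. Cox7a1 had 2089, 2664, 3457, 2461 and 3581 FPKM in Control libraries 1 to 5, 2007, 1803, 1905, 1647 and 1911 in the AngII libraries and 1504, 2128, 1867, 2007 and 1757 in the AngII+QDG libraries. AngII libraries all lay below Control, and AngII+QDG 2 alone exceeded Control 1 among its group. The log2 fold changes of Cox7a1 were −0.59 ± 0.14 (limma adjusted p = 0.022) and −0.60 ± 0.14 (adjusted p = 0.0106). Cox8b had 1907, 2546, 3259.8, 2130.4 and 3529 FPKM in Control libraries 1 to 5, 1827, 1564, 1948, 1465 and 1843 in the AngII libraries and 1360.1, 612, 1746, 1818 and 1567 in the AngII+QDG libraries. AngII+QDG 2 was far below the rest of its group, and every AngII+QDG library was below every Control library. Cox8b was called for AngII+QDG (−0.97 ± 0.26, limma adjusted p = 0.0195) and not for AngII (−0.60 ± 0.26, adjusted p = 0.131). Without AngII+QDG 2 the first difference was −0.69 (limma adjusted p = 0.0168).

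Of the general forms, Cox6a1 and Cox8a were lower in AngII+QDG. Cox6a1 had 248, 333, 359, 270.2 and 287 FPKM in Control libraries 1 to 5, 247, 219, 262, 234 and 331 in the AngII libraries and 199, 196, 222, 235 and 176 in the AngII+QDG libraries. AngII+QDG lay wholly below Control, and AngII spanned both (−0.21 ± 0.13 for AngII, limma adjusted p = 0.275, and −0.53 ± 0.13 for AngII+QDG, adjusted p = 0.0124). Cox7a2 had 453, 678, 740.5, 584 and 956 FPKM in Control libraries 1 to 5, 531, 483, 570.3, 487 and 558 in the AngII libraries and 442, 517, 513, 550.0 and 549 in the AngII+QDG libraries. Its groups overlapped and it was not called (−0.33 for AngII, limma adjusted p = 0.147, and −0.37 for AngII+QDG, adjusted p = 0.102). Cox8a had 275, 335, 423, 294 and 308 FPKM in Control libraries 1 to 5, 283, 259.6, 273, 271 and 307 in the AngII libraries and 237, 252, 262, 263 and 251 in the AngII+QDG libraries. It was called for AngII+QDG, whose libraries were all below Control (−0.35 ± 0.10, limma adjusted p = 0.0274), and not for AngII (−0.21 ± 0.10, adjusted p = 0.166).

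**Figure D2:**
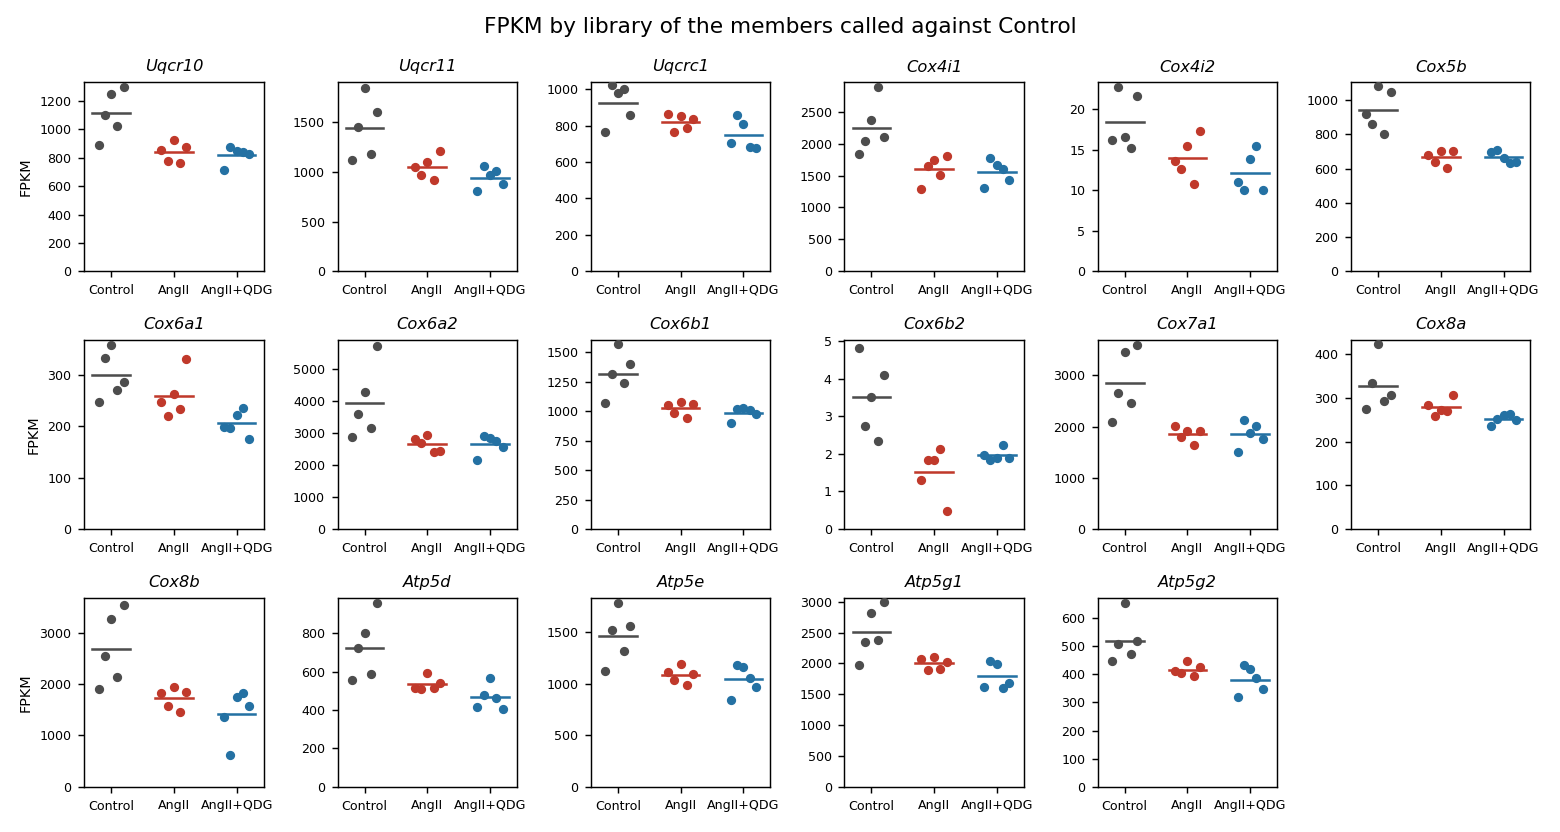
FPKM in each library (points, replicates 1 to 5 from left to right) and group mean (line) for the 17 members called against Control in at least 1 comparison, on linear axes from 0. Control libraries spread widely, with Control 3 or Control 5 highest for most of these genes, while the AngII and AngII+QDG libraries cluster lower and overlap each other.

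Ratios of the heart to the general form were formed within each library. The heart form had the shorter FPKM-weighted transcript length for Cox8b (360 nt, Cox8a 550) and Cox7a1 (395 nt, Cox7a2 651). Cox6a2 (680 nt) was longer than Cox6a1 (572 nt). A ratio of genes that differ in length keeps a library's lean to short transcripts. No ratio was adjusted for balance or length, and their part in the ratios was not tested. Cox8b to Cox8a stood at 8.19 ± 1.86 in Control, 6.20 ± 0.638 with AngII and 5.60 ± 1.83 with AngII+QDG (ratio of FPKM, SD, n = 5). Cox7a1 to Cox7a2 stood at 4.23 ± 0.407, 3.53 ± 0.205 and 3.60 ± 0.344, and Cox6a2 to Cox6a1 at 13.2 ± 3.80, 10.5 ± 1.88 and 13.0 ± 1.74, in the same order. Cox4i2 to Cox4i1 was below 0.012 in every library.
Exact two-sided permutation tests over libraries (252 arrangements, smallest possible p = 0.00794) compared the log2 ratios for 4 pairs in 3 comparisons. A single ratio at this smallest p could not pass Benjamini-Hochberg adjustment over the 12 tests by itself, so a difference could be missed. None of the 12 passed after this adjustment, and 4 had an unadjusted p under 0.05. These were Cox8b to Cox8a with AngII+QDG (log2 difference −0.61, exact permutation p = 0.00794, adjusted p = 0.0635) and with AngII (−0.38, p = 0.0159, adjusted p = 0.0635), and Cox7a1 to Cox7a2 with AngII (−0.26, p = 0.0159, adjusted p = 0.0635) and with AngII+QDG (−0.23, p = 0.0397, adjusted p = 0.119). Over protein-coding transcripts alone, Cox7a1 to Cox7a2 with AngII and Cox8b to Cox8a with AngII+QDG each reached an adjusted p of 0.0476 (exact permutation test). Without AngII+QDG 2 the difference of Cox8b to Cox8a with AngII+QDG was −0.34 (exact permutation p = 0.0238, adjusted p = 0.0714). Without Control 5 that ratio differed by −0.25 with AngII (exact permutation p = 0.0238, adjusted p = 0.0952). With AngII+QDG it then differed by −0.49 (exact permutation p = 0.0556). Without Control 3 and Control 5 it differed by −0.23 with AngII (exact permutation p = 0.0536) and −0.47 with AngII+QDG (exact permutation p = 0.232). Cox7a1 to Cox7a2 was then at −0.27 (AngII, exact permutation p = 0.0179) and −0.24 (AngII+QDG, exact permutation p = 0.0714). No adjusted p of this permutation test, with 56 arrangements against Control, was below 0.214 there.

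**Figure D3:**
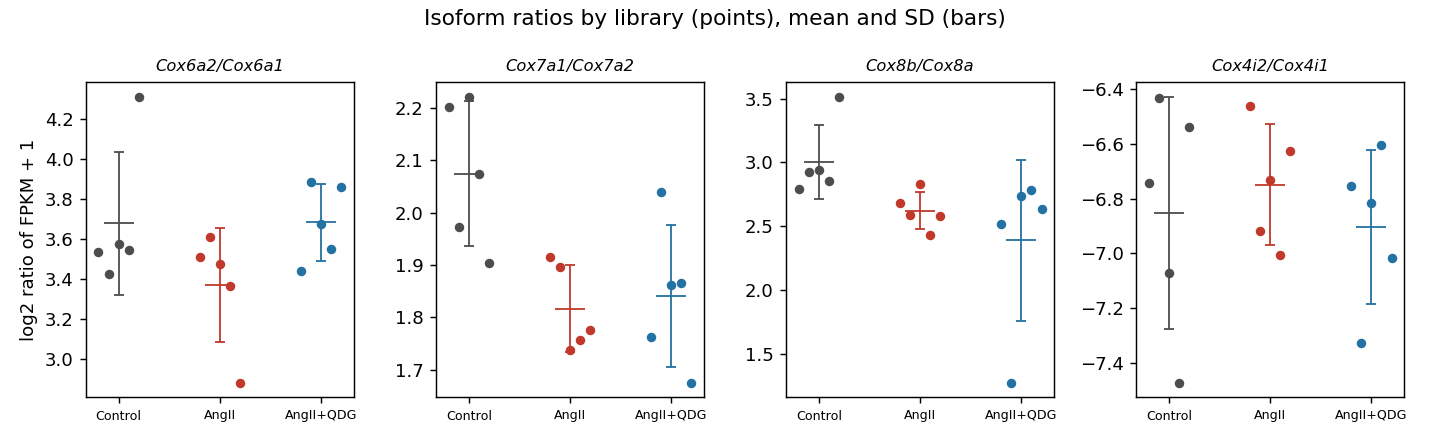
Log2 ratio of FPKM + 1 of 2 isoform genes in each library (points), with the group mean and SD (bars), for 4 pairs of complex IV subunits; the vertical axes do not start at 0 and differ between panels. Control lies above both treated groups in mean for Cox7a1/Cox7a2 and Cox8b/Cox8a, and AngII+QDG 2 stands far below its group for Cox8b/Cox8a.

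The other complex IV subunits did not pass for either treated group. Cox5a, a matrix-side partner of Cox5b in the complex, was nearly level at 1032 ± 104 FPKM in Control, 1036 ± 76.9 with AngII and 978.5 ± 68.5 with AngII+QDG (SD, n = 5), with a log2 difference of 0.0068 ± 0.09 for AngII (limma adjusted p = 0.967). Cox6c was at −0.055 and Cox7b at −0.23 for AngII. Cox7c (−0.35) and Cox7a2l (−0.51) varied within AngII: Cox7c was at 492 FPKM in AngII 2 and at 1089 to 1321 in the other AngII libraries, and Cox7a2l was at 50.5 FPKM in AngII 4, 109.9 in AngII 2 and 176 to 208 in the other 3.

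In complex V, Atp5e was lower in both treated groups, Atp5d, Atp5g1 and Atp5g2 were lower in AngII+QDG, and the catalytic subunits were not called. Atp5e, the epsilon subunit of the central stalk, had 1119, 1519, 1784, 1320.3 and 1559.7 FPKM in Control libraries 1 to 5, 1114, 1031, 1194, 989 and 1095 in the AngII libraries and 847, 1181, 1162, 1052 and 966 in the AngII+QDG libraries. Control 1 lay within the range of both treated groups. The log2 fold changes were −0.41 ± 0.12 (limma adjusted p = 0.0415) and −0.48 ± 0.12 (adjusted p = 0.0162). The AngII call of Atp5e held in 6 of 15 left-out fits and in 8 of 13 other settings, and the AngII+QDG call in 15 and 9. Atp5d, the delta subunit beside it in the stalk, had 554, 720.1, 803, 586 and 955 FPKM in Control libraries 1 to 5, 512, 507, 593, 513 and 543 in the AngII libraries and 416, 479, 568, 460.3 and 405 in the AngII+QDG libraries. Control 1 lay within the range of both treated groups, and AngII+QDG was called (−0.62 ± 0.14, limma adjusted p = 0.00922) while AngII was not (−0.41 ± 0.14, adjusted p = 0.0612).

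Atp5g1, Atp5g2 and Atp5g3 encode the same mature c subunit, whose ring turns as protons pass. Atp5g1 had 1981, 2342, 2822, 2373 and 2990.2 FPKM in Control libraries 1 to 5, 2078, 1885, 2105, 1911 and 2017 in the AngII libraries and 1623, 2046, 1994, 1606 and 1684 in the AngII+QDG libraries. Control 1 lay within the range of both treated groups, and AngII+QDG was called (−0.47 ± 0.11, limma adjusted p = 0.0106; AngII −0.31 ± 0.11, adjusted p = 0.0749). Atp5g2 had 447, 507, 655, 473 and 517 FPKM in Control libraries 1 to 5, 412, 404, 446, 392.3 and 425 in the AngII libraries and 319, 435, 419.6, 387 and 346 in the AngII+QDG libraries. Both treated groups lay below all Control libraries, and AngII+QDG was called (−0.44 ± 0.11, limma adjusted p = 0.0137; AngII −0.31 ± 0.11, adjusted p = 0.0722). Atp5g3 had 1548, 1751, 2191, 1787 and 1429 FPKM in Control libraries 1 to 5, 1588, 1640.2, 1673, 1476 and 1473 in the AngII libraries and 1380.3, 1639, 1745, 1534 and 1496 in the AngII+QDG libraries, and neither difference was called (−0.14 and −0.15). Atp5g3 made up 36.6% ± 4.31 of the 3 genes' FPKM in Control, 39.4% ± 1.50 with AngII and 41.8% ± 1.36 with AngII+QDG (SD, n = 5), and Atp5g1 made up 52.5% ± 4.58, 50.2% ± 1.37 and 48.0% ± 1.55. These shares were not tested.

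The alpha and beta subunits, which form the catalytic head, were not called. Atp5a1 had 1208 ± 291 FPKM in Control, 1435 ± 37.8 with AngII and 1451 ± 140 with AngII+QDG (SD, n = 5; 0.28 ± 0.14 for AngII, limma adjusted p = 0.18). Atp5b had 2281 ± 435, 2476 ± 66.1 and 2434 ± 175 FPKM (0.14 ± 0.12 for AngII, adjusted p = 0.42). Without Control 4, Atp5a1 was called higher in both treated groups. Atp5f1, the b subunit of the outer stalk, was at 0.13 for AngII. In each of these 3 genes Control 5 was the lowest of the 15 libraries, at 783, 1607 and 293 FPKM, and the same held for Uqcrc2 (258 FPKM) and Cyc1 (421 FPKM). The leading transcript of Atp5a1 held 9.16% of the gene's FPKM in Control 5, against a median of 96.5% over libraries. Control 5 was the highest library for the short Cox6a2 (5727 FPKM), Cox7a1 (3581 FPKM), Cox8b (3529 FPKM) and Atp5g1 (2990 FPKM). The remaining members grouped by name with complex V, Atp5h (−0.19), Atp5o (−0.18), Atp5l (−0.18), Atp5mpl (−0.27), Atp5j (−0.62), Atp5j2 (−0.58), Atp5k (0.28), Atp5c1 (−0.14) and Atp5s (0.24), did not pass for AngII.

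Transcript length ran alongside the direction of change across the members. Of the 30 members with an FPKM-weighted length under 1000 nt, 9 were lower in AngII (7.55% of all genes under 1000 nt were) and 14 in AngII+QDG (13.2%). Of the 12 members of 1000 nt or more, 0 were lower in AngII (0.412% of all such genes) and 2, Atp5d and Uqcrc1, in AngII+QDG (1.57%). The AngII median was −0.32 for the short members and 0.040 for the long ones, against −0.12 and 0.24 over all genes of these lengths. Across the 42 members (genes that share libraries and are not replicates), length and the AngII change had a Pearson r of 0.53 and a Spearman rho of 0.42, and across all 12267 genes 0.40 and 0.45. The relation differed between complexes. In complex III r was 0.66 and rho 0.82, and in complex V they were 0.46 and 0.39. In complex IV, with 1 member of 1000 nt or more, they were 0.17 and 0.15. With each library's length trend removed, 3 members (Cox5b, Cox7a1 and Cox6b1) were called lower in AngII, where 1.12% of all genes were, and 16 in AngII+QDG, where 5.60% were. Relative to the median of all genes, the AngII change was −0.69 for Cox5b, −0.79 for Cox7a1, −0.68 for Cox4i1, 0.084 for Atp5a1 and 0.092 for Uqcrc2.

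**Figure D4:**
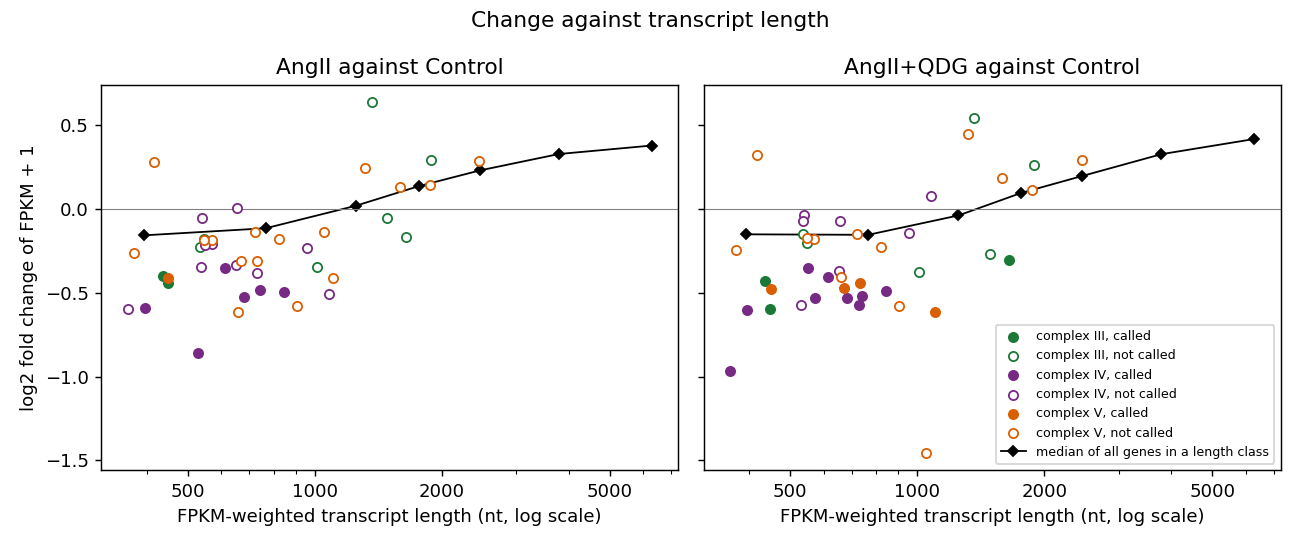
Log2 fold change of each member against its FPKM-weighted transcript length (log axis), coloured by complex and filled where called, with the median of all genes tested in each of 7 length classes (black line). Members under 1000 nt mostly lie below that line in both comparisons, while the median of the 4 members of 1500 to 2000 nt was 0.14 for AngII, as for all genes of that length.

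In 7 members the highest library of some group was at least 3 times the lowest. Atp5c1, the gamma subunit that turns inside the catalytic head, ranged from 37.7 to 1047 FPKM in Control, 52.6 to 957.8 with AngII and 54.8 to 213 with AngII+QDG. High values came in Control 2 and Control 4 and in AngII 1 and AngII 5, while the AngII+QDG libraries were all at 213 FPKM or lower. Atp5k was at 76.8 FPKM in Control 2 and at 557 to 813 in the other Control libraries. Atp5j, coupling factor 6, took 48.1% of its FPKM from transcripts annotated as non-coding. The leading transcript of Atp5c1 held 1.41% to 96.8% of the gene's FPKM, and 3 of its transcripts led in some library. Part of the deposited FPKM (7.7% to 10.7% per library) lay in 8634 assembled transcripts without gene names, and whether these hold reads of Atp5c1 or Uqcrfs1 was not tested.

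**Figure D5:**
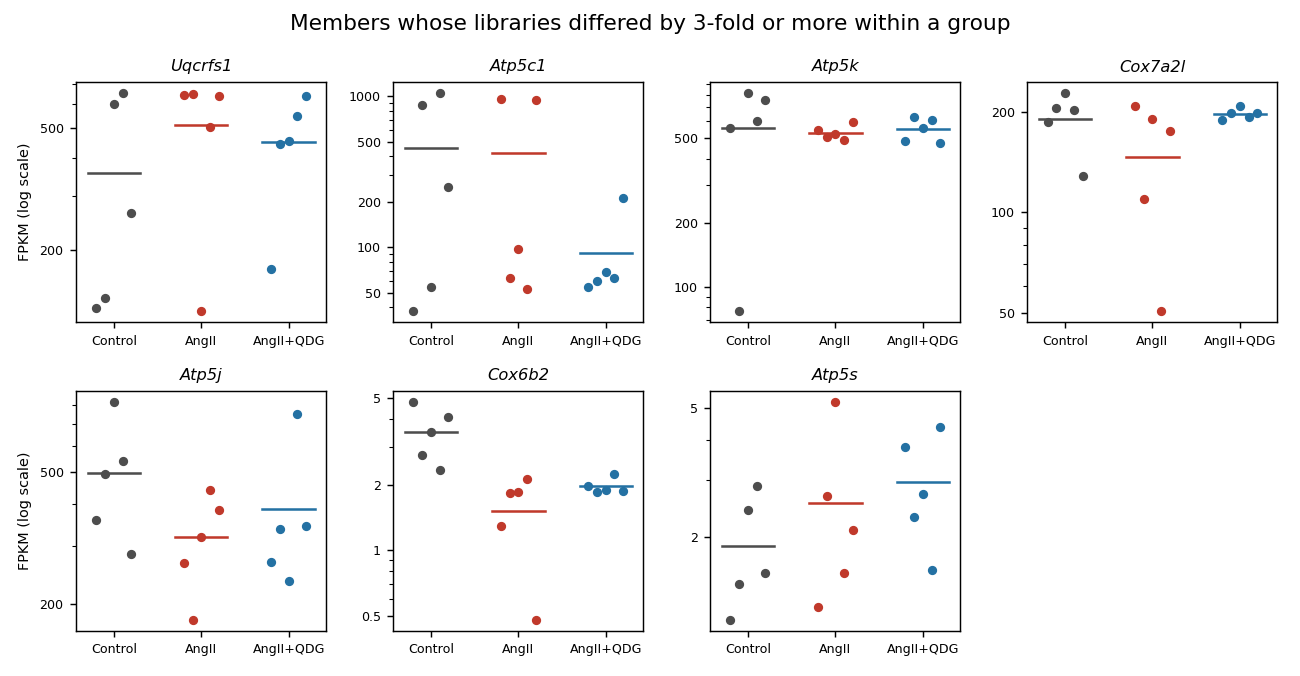
FPKM in each library (points, log axis, replicates 1 to 5 from left to right) and group mean (line) for the 7 members whose highest library in some group was at least 3 times the lowest. Atp5c1 and Uqcrfs1 split into high and low libraries within Control and within AngII, while Atp5k in Control and Cox6b2 in AngII each have 1 library far below the others and Cox7a2l in AngII has 2 low libraries.

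AngII+QDG was compared with AngII in the same fit, and no member passed. The smallest p values in this limma fit belonged to Cox6a1 (−0.32 ± 0.13 SE, adjusted p = 0.957), Cox7a2l (0.59 ± 0.30, adjusted p = 0.998) and Cyc1 (−0.21 ± 0.13, adjusted p = 0.998). Members' median difference was −0.028, against −0.017 over all genes. Cox5b (0.0036 ± 0.09), Cox7a1 (−0.0083 ± 0.14) and Cox6a2 (−0.0073 ± 0.16) were among those closest to 0. AngII+QDG against AngII gave 0 members lower without overlap and 0 higher, where 0.799% and 0.595% of all genes were.

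Partner genes of these subunits were taken from fixed lists, beside 1.48% of all genes lower and 11.9% higher in AngII. Of 5 tested subunits encoded in mitochondrial DNA, 2 fell in AngII: mt-Cytb of complex III (−0.30, limma adjusted p = 0.0222) and mt-Co2 of complex IV (−0.43, adjusted p = 0.0262). mt-Co1, the catalytic subunit of complex IV, was at 0.25 (adjusted p = 0.387). mt-Co3 had a median of 0.233 FPKM in Control, 0.248 with AngII and 0.219 with AngII+QDG. In Control, mt-Atp6 had a median of 0.291 FPKM and mt-Atp8 ran from 0.135 to 2294, whereas mt-Cytb and mt-Co1 had medians of 46720 and 64320. The values of mt-Co3, mt-Atp6 and mt-Atp8 are therefore not read as levels of these RNAs. Whether their reads were assigned to other transcripts was not tested. Of 6 assembly factors of complex III, Ttc19 rose (0.49, adjusted p = 0.034), Uqcc2 fell (−0.34, adjusted p = 0.0465) and 4 did not pass. Of 20 assembly and copper delivery factors of complex IV, Pet117 rose (1.53, adjusted p = 0.0408), Pet100 fell (−0.62, adjusted p = 0.0308) and 18 did not pass. None of 6 assembly factors and inhibitors of complex V passed (Fmc1 −0.32, adjusted p = 0.066), nor did any of 4 other partners, among them Higd2a (−0.24), Higd1a (−0.52) and cytochrome c, Cycs (−0.060).

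Of 16 regulators of nuclear respiratory genes, 6 rose in AngII, 0 fell and 10 did not pass, with a median of 0.37, where 11.9% of all genes rose. Esrrb, an estrogen-related receptor, rose from 2.87 ± 0.805 to 6.71 ± 0.555 FPKM (SD, n = 5 each; 1.02 ± 0.14 SE, limma adjusted p = 0.0038). Gabpb1 (0.92, adjusted p = 0.0168) and Gabpa (0.56, adjusted p = 0.026), the partners that form the ETS factor named above, rose from low levels of 1.15 and 3.61 FPKM. The median length of these regulators was 3779 nt, whereas that of the members was 675 nt. All 3175 genes tested of 3000 to 5000 nt had an AngII median of 0.33, near the 0.37 of the regulators. Of 9 tested genes of supercomplex and cristae organisation, Opa1, the fusion protein of the inner membrane, rose (0.51, limma adjusted p = 0.0323), and 8 did not pass. Of 35 complex I subunits, 6 fell and 1 rose in AngII, with a median of −0.24, where 1.48% of all genes were lower and 11.9% higher, and 12 fell and 1 rose in AngII+QDG, where 3.31% were lower and 16.0% higher. The smallest p values for AngII belonged to the accessory subunits Ndufb7 (−0.45, limma adjusted p = 0.0244) and Ndufb9 (−0.34, adjusted p = 0.0301) and to the core subunit Ndufs1 (1.13, adjusted p = 0.0308). None of 4 complex II subunits was called in AngII, and 1 rose in AngII+QDG. With the balance covariate no gene of these lists was called against Control.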

How the data were processed

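Hearts of 15 male C57BL/6 mice, 5 per group, were sequenced after rRNA depletion, per the labels' protocols and the series' design text. The authors deposited 1 table of FPKM per transcript for each library. The sources used here do not name an aligner or quantifier, and the submitters' processing notes name GRCm38 and limma. The unit was read from the values. Ensembl transcripts were named with GENCODE M21 (24756 of 24789) and summed per gene ID, and the 12267 genes (all 42 listed members among them) that reached 0.5 FPKM in 5 or more libraries entered limma 3.58.1 (R 4.3.3) as log2(FPKM + 1), with trended, robust variances and 12 residual degrees of freedom. This scale understates the change of low genes. Paralogs, pseudogenes and overlapping genes may share reads. No library pair was identical (0 pairs), and p-values set group differences against the spread between libraries. With 1 library per mouse, spread between mice and spread between library preparations cannot be told apart. Values above 0 were whole steps (within 0.1) for 95.8% to 97.2% of transcripts, and values of up to 10 steps for 99.0% to 99.7%. Voom on these steps was therefore an alternative. The limma and permutation scripts were tested on simulated data. Tables were made in Python 3.11.15 (pandas 2.3.3, numpy 2.4.6) and plots with matplotlib 3.10.9. Other settings covered pseudocount, filter, scaling, groups in the fit, replicate block, libraries left out, transcripts summed, length trend and balance. The members and lists were chosen with earlier results of these data known. Values in every library were given for called members, isoform pairs, Atp5g genes, Cyc1 and Uqcrfs1, and from each other list up to 3 genes with the smallest p for AngII were named.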

Additional observations from a re-analysis of the deposited data

Results flagged for a closer look

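Over the 42 members and 3 groups, 12 of 126 groups of 5 libraries held 1 library that stood apart from the other 4 by more of the group's range than Dixon's criterion allows, which chance meets in about 1 of 20 groups, here 6.3. In Control the library was Control 5 for Cyc1, at 421.4 FPKM against 653.5 to 716.5 in the others. In AngII, AngII 3 was low for Uqcrfs1 (125.9 FPKM against 506.3 to 647.3), AngII 2 for Cox7c (492.4 against 1089 to 1321) and AngII 4 for Atp5j2 (480.5 against 789.1 to 862.5), while AngII 5 was high for Atp5f1 (531.4 against 419.5 to 447.6). In AngII+QDG, library 1 was low for Uqcr10 (713.7 FPKM against 830.3 to 875.7) and Atp5h (1249 against 1433 to 1480). Library 4 of that group was high for Cox7b (759.7 against 597 to 634.6) and Atp5j (747.3 against 234.6 to 345). Library 5 was high for Atp5c1 (213.2 against 54.78 to 68.69) and Atp5l (838.6 against 751.3 to 773.9), and library 2 for Atp5f1 (559.6 against 427.3 to 462).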

How the results depend on the processing

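AngII against Control called 9 members. The count was 3 with quantile normalization, 1 with only the groups compared in the fit, 1 without Control 3 and Control 5, 3 with the length trend removed and 0 with the library balance of short and long transcripts as covariate. It was 13 with median scaling. Leaving out 1 library gave 2 to 14: 14 without Control 1 (1.89% of all genes lower), 13 without Control 4 (11 lower, and Atp5a1 and Uqcrc2 higher, where 2.16% of all genes were lower and 18.1% higher), 4 without Control 2 (0.547%) or Control 5 (0.767%), 3 without Control 3 (0.441%) or AngII 1 (0.678%), 2 without AngII 2 (0.213%) or AngII 4 (0.237%) and 4 without AngII 5 (0.753%). AngII+QDG against Control called 16, and the count was 10 (9 lower, and Uqcrc2 higher) with quantile normalization, 5 without Control 3 and Control 5, 24 with median scaling, 0 with the balance covariate and 12 to 20 with 1 library left out (1.52% to 3.76% of all genes lower). Atp5a1 and Uqcrc2 were also called higher there without Control 4 and without the mitochondrial genome. AngII+QDG against AngII called 0 in every setting run. Of the members called without it, the balance covariate turned the sign, with no call, of Cox6a2 (0.090), Atp5e (0.053) and Uqcr11 (0.078) for AngII and of Cox7a1 (0.011), Uqcr10 (0.0023), Atp5e (0.037) and Cox6a2 (0.15) for AngII+QDG. Isoform ratios gave 0 calls, and 1 for each treated group against Control over protein-coding transcripts. The cause of these changes was not tested. With the replicate number as a block 6, 0 and 14 members were called, beside 0.587%, 0% and 2.46% of all genes lower (AngII against Control, AngII+QDG against AngII, AngII+QDG against Control). The sample titles do not say whether equal numbers pair libraries. Deviations of same-numbered libraries correlated by −0.096 to 0.087, and 0, 0 and 3 of 10 libraries lay closest to their own number. Whether libraries of the same number shared a batch was not tested. Pseudocount, filter, shared-transcript, protein-coding and voom settings moved neither count by so much. Cox6b2 and Atp5s, at a few FPKM, have the least depth behind them. Over all genes, AngII gave 1457 higher and 181 lower calls, 406 and 413 with quantile normalization and 361 and 715 with median scaling, and AngII+QDG gave 1968 and 406, 983 and 999, and 791 and 1625.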
